A study of Mus musculus with 186 samples.

Results

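Phosphodiesterases (PDEs) hydrolyse the second messengers cAMP and cGMP, and so set how long a receptor's signal to protein kinase A (PKA) or protein kinase G lasts and how far it spreads in a cell. The PDE1 enzymes are switched on by calcium and calmodulin and cleave both messengers, as do PDE10A and the cGMP-activated PDE2A, and the PDE4, PDE7 and PDE8 enzymes are selective for cAMP. Striatal projection neurons are known for abundant PDE10A and PDE1B, which limit cyclic nucleotide signals downstream of dopamine and adenosine receptors. The 10 genes described here, Pde1a, Pde1b, Pde1c, Pde2a, Pde4a, Pde4b, Pde4d, Pde7b, Pde8b and Pde10a, were chosen by name from the 28338 genes of the count table. They are 10 of 21 catalytic cyclic nucleotide PDE genes looked up there, and all 10 passed the low-count filter in every comparison.

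RNA was sequenced from microdissected frozen brain of mice, with 96 libraries at 4 weeks of age and 90 at 12 weeks. The 6 regions were striatum, hippocampus, thalamus, substantia nigra, and the prefrontal and somatosensory cortices. Each region and age held wild-type (WT) mice, Akap11 +/- mice (HET) and Akap11 -/- mice (KO). Akap11 encodes an anchoring protein that holds PKA. Of the 36 groups, 30 had 5 libraries and 6 had 6. The labels name no treatment, strain or sex, do not say how the Akap11 allele was made or whether it was removed in particular cells, and do not state that libraries are separate animals, so p-values measure the spread between libraries. The question addressed is where these genes were expressed and whether their RNA differed with Akap11 genotype and age.

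The deposited expected counts of single libraries summed to between 20.8 and 73.3 M, and averaged 46.1 ± 9.60 M (SD over libraries). Levels are given as counts per M counts (CPM) after TMM scaling over all libraries. Called genes are those with an adjusted p below 0.05 in edgeR's quasi-likelihood test with Benjamini-Hochberg adjustment over all genes tested. Akap11 itself was at 11.9 to 24.6 CPM in the 60 KO libraries, 89.0 to 225 CPM in the 63 HET libraries and 175 to 437 CPM in 62 of the 63 WT libraries. The exception was the substantia nigra library labelled WT 92 at 4 weeks, with 43.6 CPM. Values without it, mostly from fits that also left out other libraries, are given beside the nigral results that change. Summed marker genes placed 30 of 30 striatal, 92 of 93 cortical or hippocampal, 29 of 31 thalamic and 31 of 32 substantia nigra libraries above every library of the other regions. The 4-week libraries that stood apart by markers of a neighbouring region are named beside the results they touch. In tissue RNA, fewer cells of a type and less RNA per cell cannot be told apart.

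The 10 genes lie on 9 chromosomes, and several have more than 1 RefSeq start site. In the GENCODE M21 annotation of GRCm38, Pde10a spans chr17:8525372-8986648 on the plus strand, Pde1b chr15:103503034-103530052 on the plus strand, Pde2a chr7:101421691-101512827 on the plus strand and Pde4a chr9:21165714-21213248 on the plus strand. Pde1a lies at chr2:79834453-80129458 and Pde1c at chr6:56069804-56569103, both on the minus strand. Pde4b spans chr4:102087543-102607259 and Pde4d chr13:108449948-109953461, both on the plus strand, while Pde7b at chr10:20398004-20725078 and Pde8b at chr13:95024454-95250336 are on the minus strand. RefSeq on GRCm38.p6 gave 31 promoter windows for the 10 genes, from 250 bases before to 50 after each start site. The 100 bases just upstream of 1 start site each of Pde10a, Pde2a and Pde4a are printed here, the genes called by edgeR between genotypes in striatum. Pde2a and Pde10a were called between KO and WT at 12 weeks. Pde4a was called only between KO and HET at 4 weeks, a call lost in several alternatives given below. The stretches are given 5′ to 3′ on the plus strand, overlap 0 annotated exons, and show in capitals, in the Pde4a stretch, the opposite-strand copy of TGACG, the core of the cAMP response element.
Pde10a, chr17:8849885-8849984: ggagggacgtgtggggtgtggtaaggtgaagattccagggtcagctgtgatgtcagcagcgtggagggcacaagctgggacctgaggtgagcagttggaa
Pde2a, chr7:101421591-101421690: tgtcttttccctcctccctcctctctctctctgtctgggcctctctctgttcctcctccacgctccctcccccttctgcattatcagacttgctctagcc
Pde4a, chr9:21184001-21184100: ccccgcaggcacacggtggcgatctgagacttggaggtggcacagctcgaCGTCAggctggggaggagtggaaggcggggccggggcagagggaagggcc

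The Pde4a stretch was 71% G or C, against 59% for Pde10a and 57% for Pde2a. On both strands, the full palindromic cAMP response element TGACGTCA was in 0 of the 31 member windows and in 1.79% of all 32851 windows. Its core TGACG, which the full element contains, was in 5 of the 31 member windows and in 20.8% of all windows. Those 5 windows belong to Pde1a, Pde2a, Pde4a, Pde4b and Pde8b, and in Pde4a the core began 50 bases before the start site. The site bound by EGR transcription factors, GCGTGGGCG, was in 0 of the 31 member windows and in 0.612% of all windows. A match describes letters in a window, and the counts per gene do not tell which start site was used.

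Among WT libraries the 10 genes had distinct regional patterns, and 6 of them had their highest mean in striatum at both ages: Pde1b, Pde1c, Pde2a, Pde4b, Pde7b and Pde10a. Pde1a and Pde4a had theirs in prefrontal cortex at both ages. Pde8b was near the same level in striatum and somatosensory cortex, and Pde4d was spread almost evenly. Over the 15 region pairs per age, 101 of 150 member tests were called at 4 weeks, against 45.6% of all gene and pair tests, and 123 of 150 at 12 weeks, against 61.1%. These tests are not independent, since region pairs share libraries.

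**Figure D1:**
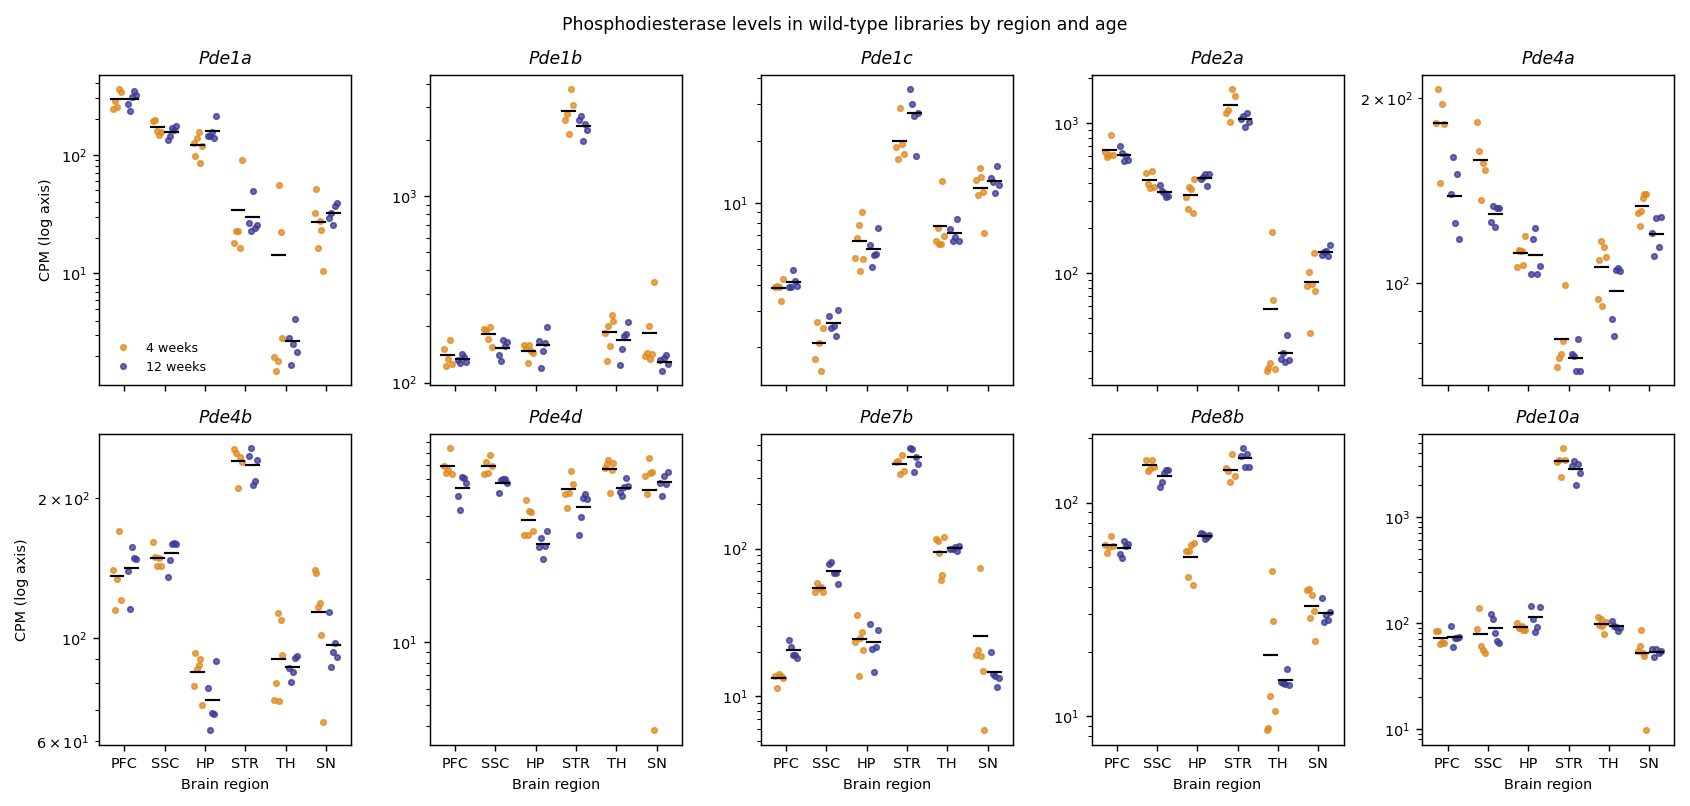
Level of each of the 10 genes in WT libraries by region, in CPM on a log axis, with 1 point per library at 4 and 12 weeks and a bar at the group mean. The striatal means of Pde10a are at least 25.0-fold those of any other region, while those of Pde4a span at most 2.25-fold, and single 4-week libraries such as nigral WT 92 for Pde4d (3.80 CPM) lie far from their group.

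The genes of the calmodulin-activated enzymes did not share the same regional order. Pde1b at 12 weeks had striatal values of 2556, 2681, 1966, 2441 and 2278 CPM in WT 1 to 5, a mean of 2384 ± 277 (SD, n = 5), and the other 5 regions had means from 130 CPM in substantia nigra to 170 CPM in thalamus. Striatal libraries did not overlap those of any other region, and the difference from thalamus was 3.80 ± 0.13 on the log2 scale (SE, edgeR adjusted p = 9.1e-21). With all libraries, none of the neighbours among the other 5 regions differed in its level at either age. Of all 15 region pairs, 8 were called for Pde1b at 12 weeks, more than the 5 pairs that include striatum. Some regions outside striatum that were not neighbours in the order thus differed at 12 weeks. At 4 weeks nigral WT 92 was at 346 CPM of Pde1b. A further fit left out 6 libraries, named below with Pde1a, most of which stood apart by markers. In that fit thalamus was above substantia nigra (0.53 ± 0.15, edgeR adjusted p = 0.00455) and somatosensory cortex above hippocampus (0.30 ± 0.12, adjusted p = 0.0310). At 4 weeks the striatal mean was 2863 ± 612 CPM (SD, n = 5), 15.4-fold the second highest region.

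Pde1a had the reverse arrangement, with forebrain cortex at the top. At 12 weeks its mean was 294 ± 44.6 CPM in prefrontal cortex, 159 ± 29.9 in hippocampus, 156 ± 17.9 in somatosensory cortex, 32.6 ± 5.64 in substantia nigra, 29.7 ± 11.3 in striatum and 2.68 ± 0.903 in thalamus (SD, n = 5 each). The span from prefrontal cortex to thalamus was 110-fold. Hippocampus and somatosensory cortex did not differ beyond their spread, nor did substantia nigra and striatum, and the other neighbours did. At 4 weeks the order was the same for the first and last region, but in that fit 1 of the 5 neighbouring steps of Pde1a was called, from hippocampus to striatum.

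That difference between ages moved with single libraries. The 6 thalamic WT libraries at 4 weeks had Pde1a at 55.1 CPM in WT 913, 22.3 CPM in WT 914 and at most 2.86 CPM in the other 4. Those 2 libraries also had the lowest summed thalamic markers, 3023 and 3384 CPM, against 5400 to 7305 CPM in the other 4, and WT 913 had Pde2a at 187 CPM where the lowest 4 were at 22.2 to 25.2 CPM. Without thalamic WT 913, 914 and 23, striatal WT 92 and nigral WT 42 and 92, a choice made after the data were seen, Pde1a in thalamus was 2.22 ± 0.561 CPM (SD, n = 3). The number of called member tests at 4 weeks then rose from 101 to 123 of 150, with 23 calls gained and 1 lost. WT 23 was within the range of the others by its thalamic markers, at 6201 CPM, and was left out with WT 913 and 914 because the alternative had been listed in that form.

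Pde1c was highest in striatum too, and its order of regions was the same at both ages. At 12 weeks its striatal mean was 27.3 ± 6.90 CPM, followed by 12.8 ± 1.43 in substantia nigra, 7.12 ± 0.792 in thalamus, 5.99 ± 1.00 in hippocampus, 4.14 ± 0.352 in prefrontal cortex and 2.62 ± 0.296 in somatosensory cortex (SD, n = 5 each). Each step was called except that from thalamus to hippocampus. Pde1a was high in the cortical regions where Pde1c was lowest.

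Pde10a and Pde2a both peaked in striatum, but Pde2a was also high in cortex and hippocampus. Pde10a at 12 weeks was at 3027, 3383, 1988, 3186 and 2615 CPM in striatal WT 1 to 5, and the means elsewhere were 114 CPM in hippocampus, 92.9 in thalamus, 88.7 in somatosensory cortex, 74.1 in prefrontal cortex and 53.6 in substantia nigra. The lowest striatal library was above every library of the other regions, and the striatal mean was 25.0-fold the second highest and 53.0-fold the lowest. The step from striatum to hippocampus was 4.65 ± 0.19 on the log2 scale (SE, edgeR adjusted p = 1.28e-18), and of the remaining steps only that from prefrontal cortex to substantia nigra was called (0.44 ± 0.16, adjusted p = 0.0190). At 4 weeks the striatal mean of Pde10a was 3399 ± 745 CPM (SD, n = 5), 34.5-fold the second highest region.

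Pde2a separated all 6 regions at 12 weeks. Its means were 1059 ± 88.4 CPM in striatum, 611 ± 57.9 in prefrontal cortex, 431 ± 31.9 in hippocampus, 346 ± 25.6 in somatosensory cortex, 139 ± 9.94 in substantia nigra and 29.3 ± 5.39 in thalamus (SD, n = 5 each). Each of the 5 steps was called, with sizes from 0.33 ± 0.09 to 2.25 ± 0.09 on the log2 scale. At 4 weeks the step from substantia nigra to thalamus was 0.55 ± 0.37 (SE, edgeR adjusted p = 0.282), and it was -2.08 for thalamus minus substantia nigra without the 6 libraries named above (adjusted p = 6.98e-09).

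The PDE4 genes were the most evenly expressed of the 10. Pde4a was lowest in striatum at both ages, with 75.6 ± 3.85 CPM at 12 weeks against 97.0 ± 11.3 in thalamus, the next lowest, a step of 0.37 ± 0.08 (SE, edgeR adjusted p = 0.000135). Its highest region exceeded its lowest by 2.25-fold at 4 weeks and 1.83-fold at 12 weeks. Pde4b had the opposite position, with 236 ± 18.6 CPM in striatum at 12 weeks and 152 ± 10.8 in somatosensory cortex, a step of 0.65 ± 0.09 (SE, adjusted p = 1.77e-07). Pde4d ranged between 29.5 CPM in hippocampus and 58.2 CPM in substantia nigra at 12 weeks. Neighbours in the order from substantia nigra through somatosensory cortex and thalamus to prefrontal cortex did not differ beyond their spread. At 4 weeks none of its neighbouring steps was called with all libraries, and the nigral WT 92 library was at 3.80 CPM of Pde4d where the other 5 were at 51.1 to 75.4. Without the 6 libraries named above, Pde4d was lower in hippocampus than in substantia nigra (-0.64 ± 0.12, edgeR adjusted p = 3.95e-05) and lower in striatum than in thalamus (-0.40 ± 0.14, adjusted p = 0.0142).

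The cAMP-specific enzymes of the PDE7 and PDE8 families each marked 2 or 3 regions. Pde7b at 12 weeks was at 414 ± 64.5 CPM in striatum, 100.2 ± 2.84 in thalamus and 70.9 ± 9.35 in somatosensory cortex, against 14.5 to 23.2 CPM in the other 3 regions (SD, n = 5 each). The steps between striatum, thalamus, somatosensory cortex and the rest were called at both ages. Prefrontal cortex was thus far below somatosensory cortex for Pde7b, at 20.4 ± 2.47 CPM. Pde8b showed the same contrast between the cortices, with 133 ± 10.9 CPM in somatosensory and 61.1 ± 4.75 CPM in prefrontal cortex at 12 weeks. Its striatal level, 162 ± 14.6 CPM, was above that of somatosensory cortex at 12 weeks by 0.30 ± 0.07 (SE, edgeR adjusted p = 0.000538), and at 4 weeks these 2 regions did not differ beyond their spread, with 143 and 149 CPM.

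To compare genes with each other, levels were divided by the length of the longest annotated transcript, as CPM per kb, and each gene was expressed as a share of the sum over all 21 catalytic PDE genes. In striatum the 10 genes made up 98.7% of that sum at 4 weeks and 98.6% at 12 weeks. Pde1b alone held 41.0% and 40.2%, Pde10a 26.4% and 25.7%, Pde2a 19.0% and 17.9%, and Pde7b 4.26% and 5.46%. The order of Pde1b and Pde10a depends on the lengths used, 4215 and 7769 bases, and counts per gene do not tell which transcripts were present. In CPM, Pde10a was above Pde1b in striatum, at 3399 against 2863 at 4 weeks and 2840 against 2384 at 12 weeks. The summed level in striatum was 1650 CPM per kb at 4 weeks and 1409 at 12 weeks, and the other regions had 160 to 388. Elsewhere Pde2a led in prefrontal cortex, with 40.3% and 39.7%, and in hippocampus, with 31.9% and 36.6%. Pde2a also led in somatosensory cortex, with 28.8% and 26.7%, and in substantia nigra at 12 weeks, with 18.7% against 17.5% for Pde1b. Pde1b led in thalamus at both ages and in substantia nigra at 4 weeks. The share held by the 10 genes was lowest in thalamus and substantia nigra, between 85.3% and 86.1%, and there Pde8a, which is not among the 10, reached 6.92% in substantia nigra at 4 weeks.

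**Figure D2:**
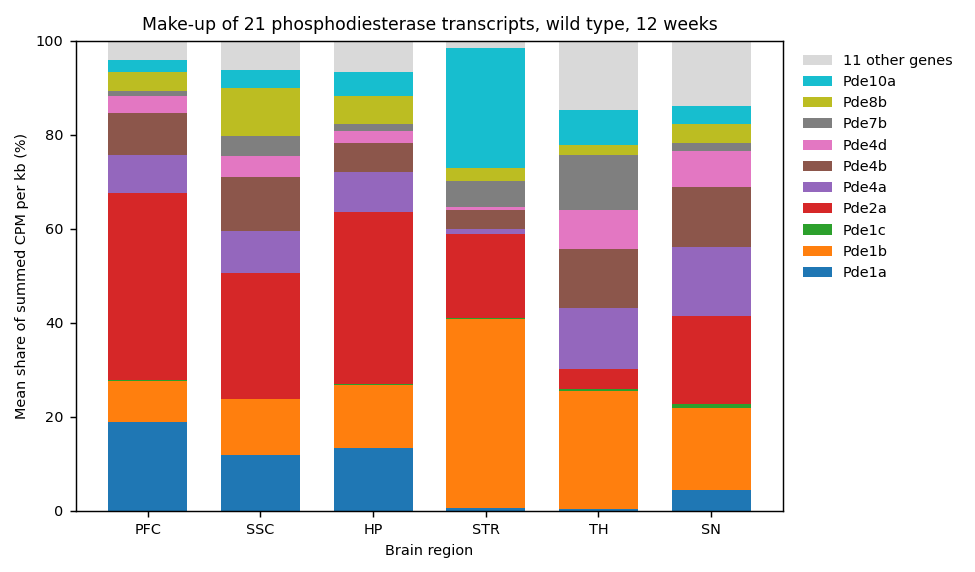
Share of the summed CPM per kb of all 21 catalytic PDE genes held by each of the 10 genes in WT libraries, in percent, as stacked bars of group means for each region at 12 weeks. Pde1b, Pde10a and Pde2a fill most of the striatal bar, and Pde2a leads in both cortices, hippocampus and, narrowly, substantia nigra. The part left for the other 11 genes is largest in thalamus and substantia nigra.

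Across the 63 WT libraries, the levels of some of the 10 genes rose and fell together, as log2(CPM + 1). Pearson's r was 0.94 between Pde1b and Pde10a, 0.90 between Pde2a and Pde8b, 0.84 between Pde7b and Pde10a and 0.71 between Pde1a and Pde2a, and it was -0.72 between Pde4a and Pde7b. Similar genes were sought among 13830 genes, a number that includes the 10 members, which were not ranked. Those most like Pde10a were Fancb (r = 0.972), Cyld (0.970) and Sh3rf2 (0.968). Those most like Pde1b were Serpina9 (0.974), Adora2a (0.974), which encodes an adenosine receptor of striatal neurons, and Sh3rf2 (0.972). For Pde1a the closest were Mpped1 (0.982), Sstr2 (0.973), a somatostatin receptor gene, and Dkk3 (0.960), and for Pde2a they were Rasgef1a (0.977), Cacnb1 (0.976), a calcium channel subunit gene, and Slc24a4 (0.975). Pde1c was closest to Klhl13 (0.951), Pde4a to Mast2 (0.934), Pde4b to Lrrtm3 (0.940), Pde4d to Cpeb2 (0.917), Pde7b to Zfp385b (0.927) and Pde8b to Dclk3 (0.954). These values are descriptions over libraries that share regions, so they largely follow the regional differences.

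Age was compared within WT libraries of each region, and at most 4 of the 10 genes were called in any region. Age and any difference in handling or sequencing between the ages cannot be told apart. How many of all genes had no overlap between the ages was not computed, so a lack of overlap below has no background. In hippocampus 3 members were called, where 17.7% of all genes were (7.05% higher and 10.6% lower at 12 weeks). Pde2a was higher at 12 weeks, at 431 against 332 CPM (0.37 ± 0.10 on the log2 scale, edgeR adjusted p = 0.0124), and so was Pde8b, whose 12-week libraries were all above the 4-week ones (0.33 ± 0.09, adjusted p = 0.0135). Pde4d was lower, at 29.5 against 38.4 CPM (-0.38 ± 0.10, adjusted p = 0.00563). With only WT libraries in the fit, the adjusted p was 0.0587 for Pde2a, 0.0555 for Pde8b and 0.0497 for Pde4d.

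In somatosensory cortex 4 members were called, where 27.1% of genes were. Pde4a (-0.29, edgeR adjusted p = 0.0183) and Pde4d (-0.27, adjusted p = 0.0220) were lower at 12 weeks with no overlap between the ages, Pde2a was lower (-0.26, adjusted p = 0.0286) and Pde7b higher (0.40, adjusted p = 0.0202). Without 4-week WT 142 the adjusted p was 0.0853 for Pde4a and 0.107 for Pde2a, and without 4-week WT 914 it was 0.0736 for Pde4d and 0.104 for Pde2a, so that 2 of the 4 calls were lost each time. WT 142 and 914 had summed cortical markers of 4291 and 4128 CPM, against 2855 to 3044 CPM in the other 3 libraries, and belong to the 16 libraries whose counts hold few whole numbers. Without 12-week WT 1, Pde4d (adjusted p = 0.0699) and Pde7b (0.0516) were not called. In prefrontal cortex 1 member was called, where 19.1% of genes were (8.89% higher and 10.2% lower). This was Pde7b, with libraries at 11.4 to 14.1 CPM at 4 weeks and 18.1 to 24.2 CPM at 12 weeks, which did not overlap (0.64 ± 0.16, adjusted p = 0.00437). With only WT libraries in the fit, Pde4a (-0.38, adjusted p = 0.0308) and Pde4d (-0.34, adjusted p = 0.0447) were also called. Pde7b was thus higher at 12 weeks in both cortices.

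In thalamus 2 members were called, where 22.6% of genes were. Pde4d was lower at 12 weeks, at 54.5 against 66.9 CPM (-0.28 ± 0.08, edgeR adjusted p = 0.0154). Pde1a was lower by -2.42 ± 0.68 (adjusted p = 0.0108), but without WT 913, 914 and 23 the difference was 0.29 (adjusted p = 0.655), and with only WT libraries in the fit the adjusted p was 0.126. Without those libraries Pde8b was higher at 12 weeks (0.51, adjusted p = 0.00559). In substantia nigra 2 were called, where 18.6% of genes were (6.86% higher and 11.8% lower). Pde1b was lower (-0.51 ± 0.18, adjusted p = 0.0435) and Pde2a higher (0.68 ± 0.23, adjusted p = 0.0327). Neither passed with only WT libraries in the fit (adjusted p = 0.279 and 0.110) or without nigral WT 42 and 92, with values of -0.10 (adjusted p = 0.599) for Pde1b and 0.47 (adjusted p = 0.154) for Pde2a, while Pde4b was then called lower at 12 weeks (-0.36 ± 0.09, adjusted p = 0.00783).

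In striatum edgeR called 0 of the 10 genes between the ages, where 18.5% of genes were called (9.12% higher and 9.41% lower). DESeq2 also called 0. An unadjusted edgeR p under 0.05 was found for 3 of the 10, beside 4976 of all 15990 genes. Pde10a was at 2840 ± 554 CPM at 12 weeks and 3399 ± 745 at 4 weeks (SD, n = 5 each), a difference of -0.24 ± 0.22. The difference nearest to the threshold was that of Pde1c (0.47 ± 0.19, adjusted p = 0.0816).

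The KO striatum at 12 weeks had lower Pde2a and Pde10a than the WT striatum, and the other 8 genes were not called. This is 2 of 10, where 4.42% of all 15622 genes were called and 2.6% were called lower. DESeq2 called the same 2 genes. The members' median absolute log2 fold change was 0.189, beside 0.101 over all genes tested.

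Pde2a was at 936, 781, 873, 909 and 853 CPM in KO 1 to 5, at 1062, 1122, 934, 1159 and 1018 CPM in WT 1 to 5, and at 999, 1061, 1116, 1127 and 1115 CPM in HET 1 to 5. Of the 5 KO libraries, 4 were below every WT library, the exception being KO 1, just above WT 3, and all 5 KO libraries were below every HET library. How many of all genes separate KO from HET libraries in this way was not computed. The KO mean was 870 ± 59.2 CPM and the WT mean 1059 ± 88.4 CPM (SD, n = 5 each), a log2 fold change of -0.29 ± 0.06 (SE, edgeR adjusted p = 0.0110). Against HET, a comparison that shares the KO libraries, Pde2a was lower by -0.32 ± 0.06 (adjusted p = 0.00482), the only member of the 10 called there, where 4.79% of genes were called. HET and WT did not differ beyond their spread (0.04 ± 0.06).

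Pde10a was at 2193, 1879, 2233, 2278 and 1979 CPM in KO 1 to 5, and at 3027, 3383, 1988, 3186 and 2615 CPM in WT 1 to 5. HET 1 to 5 were at 2187, 2772, 2657, 2745 and 2831 CPM. The KO libraries lay close together, while the WT libraries spread widely, and WT 3 sat among the KO libraries, so that 2 of 5 KO libraries were below every WT library. The log2 fold change was -0.43 ± 0.11 (SE, edgeR adjusted p = 0.0374), or 25.7% lower. Against HET it was -0.33 ± 0.11 (adjusted p = 0.117).

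**Figure D3:**
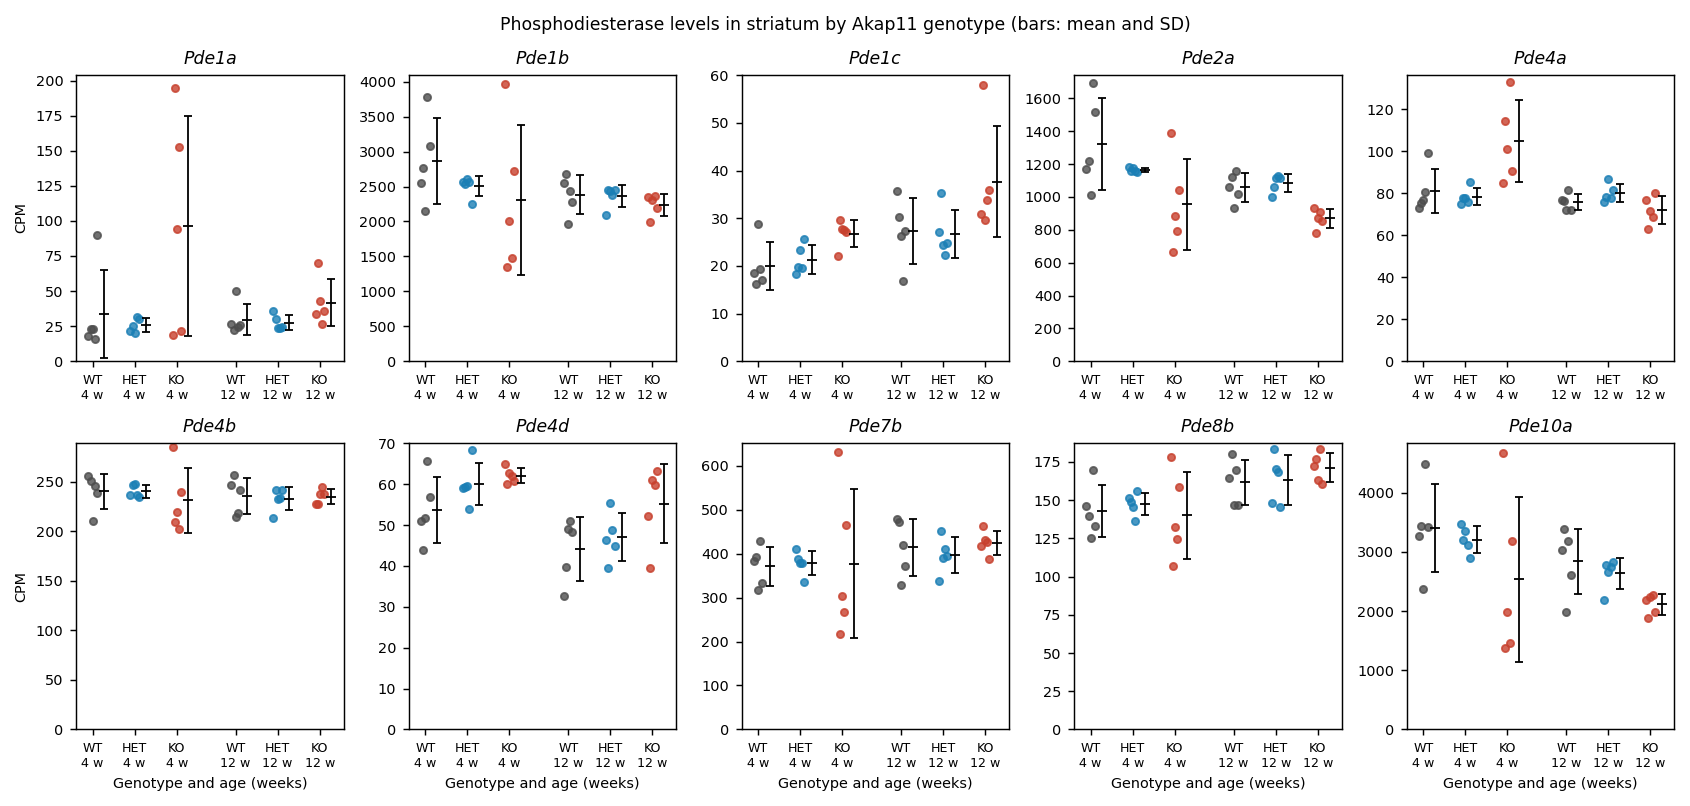
Level of each of the 10 genes in striatal libraries by genotype and age, in CPM on axes that start at 0, with 1 point per library and the mean and SD beside each group. At 12 weeks the KO points of Pde2a lie below all HET points, and the KO points of Pde10a lie below 4 of the 5 WT points, while at 4 weeks the KO points of Pde1a and Pde10a are spread over a wide range.

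The Pde10a call was lost in 8 of the 10 fits that left out 1 KO or WT library. Leaving out any 1 of the 5 KO libraries, WT 1, WT 2 or WT 4 took its adjusted p to 0.0532 to 0.0995, while leaving out WT 5 kept the call and leaving out WT 3 took the fold change to -0.53 (adjusted p = 0.00126). With only KO and WT in the fit the adjusted p was 0.0715. The Pde2a call was kept in each of these settings. Pde1a, whose WT level was highest in prefrontal cortex, was highest in KO 2 (69.7 CPM) among the KO libraries and in WT 3 (49.7 CPM) among the WT libraries, and these 2 libraries also had the lowest summed striatal markers of their groups, 8188 and 8141 CPM. Without both, a choice made after the data were seen, Pde2a was at -0.29 (adjusted p = 0.00583) and Pde10a at -0.49 (adjusted p = 0.00342). For Pde10a this is no support, since WT 3 is the WT library that lay among the KO libraries.

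Markers of other cells were read beside these differences. The summed level of 10 striatal projection neuron markers was 8188 to 10607 CPM in the KO libraries and 8141 to 10974 CPM in the WT libraries at 12 weeks, and 1 of the 10 markers was called higher and 2 lower. Per 1000 CPM of those markers, WT libraries averaged 282 ± 23.8 CPM of Pde10a, HET libraries 263 ± 12.2 and KO libraries 222 ± 5.96 (SD, n = 5 each), with KO libraries at 215 to 229, below every WT (244 to 308) and HET (251 to 282) library. Pde2a per 1000 CPM of the same markers was at 85.7 to 95.4 CPM in KO, also below every WT and HET library (101 to 115 in both). How many of all genes separate the genotypes by such a ratio was not computed at either age, so these separations have no background. By this measure the means of Pde1b were 239 CPM for WT and 236 CPM for both HET and KO. With the striatal marker level as a covariate, also chosen after the data were seen, Pde10a was at -0.32 ± 0.05 (edgeR adjusted p = 0.00152) and Pde2a at -0.24 (adjusted p = 0.00129).

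The summed level of 10 cortical and hippocampal excitatory neuron markers at 12 weeks was 195 to 220 CPM in KO, 162 to 179 CPM in WT and 163 to 197 CPM in HET striatum. Most of it was Lamp5, at 148 to 208 CPM over the 15 libraries, and Lamp5 was called higher in KO (0.31 ± 0.07 on the log2 scale, edgeR adjusted p = 0.0121). The markers that define cortical excitatory neurons were near 0, with Slc17a7 at most 5.79 CPM and Neurod6, Neurod2, Emx1 and Tbr1 each at most 0.550 CPM. With the full marker sum as a covariate, Pde2a was at -0.23 (adjusted p = 0.307) and Pde10a at -0.46 (adjusted p = 0.265), and 1.27% of all genes were called, against 4.42% without it. With the 9 markers other than Lamp5, which summed to 10.7 to 18.4 CPM in KO and 8.50 to 16.9 CPM in WT, Pde2a was at -0.25 (adjusted p = 0.0140) and Pde10a at -0.32 ± 0.08 (adjusted p = 0.0263), a setting chosen after the data were seen.

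The other 8 genes at 12 weeks gave these values. Pde1b, the highest of the 10 genes in striatum per kb, was at 2241 ± 158 CPM in KO and 2384 ± 277 in WT striatum (SD, n = 5 each), with a log2 fold change of -0.09 ± 0.07 (SE, edgeR adjusted p = 0.620). Pde4d was at 52.3, 39.5, 61.0, 59.9 and 63.2 CPM in KO 1 to 5 and at 32.5 to 51.0 CPM in WT. For Pde4d, 4 of the 5 KO libraries were above every WT library, but the difference of 0.32 ± 0.13 did not pass (adjusted p = 0.232). Without KO 2 and WT 3 the Pde4d difference was 0.46 ± 0.13 (adjusted p = 0.0469). Pde1c was 0.46 ± 0.20 apart (adjusted p = 0.269), with KO 2 at 58.0 CPM above the other KO libraries, and Pde1a was 0.48 ± 0.25 apart (adjusted p = 0.384). Pde4a, Pde4b, Pde7b and Pde8b had fold changes between -0.07 and 0.08. Pde2a and Pde10a were thus called lower where Pde1b and Pde7b, also highest in striatum, were not, and whether the genes differ from each other in their KO effect was not tested.

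At 4 weeks edgeR called 0 of the 10 genes between KO and WT striatum, where 3.35% of all genes were called. Of the 10, 5 had an unadjusted p under 0.05, beside 2755 of all 15425 genes. DESeq2 called 1, Pde4a. The KO libraries were far from alike. Pde10a was at 4668, 1374, 1990, 1469 and 3185 CPM in KO 12, 161, 163, 51 and 932, and at 3267, 3445, 2380, 4477 and 3424 CPM in WT 142, 42, 913, 914 and 92. Of the KO libraries, 1 was above and 3 were below every WT library, and the log2 fold change was -0.43 ± 0.28 (SE, edgeR adjusted p = 0.465). KO 12 and WT 914, the highest of their groups, and WT 92 belong to the 16 libraries whose counts hold few whole numbers. KO 12 and WT 914 also had the highest summed striatal markers of their groups, 15502 and 14515 CPM.

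The same 3 libraries, KO 51, 161 and 163, were low in other striatal genes and high in cortical ones. Pde1a was at 153, 195 and 94.0 CPM in them and at 18.8 and 21.7 CPM in KO 12 and 932, and WT 92 was at 89.9 CPM where the other WT libraries had 16.2 to 22.9. The summed cortical markers were 1359, 1728 and 888 CPM in KO 51, 161 and 163 and 1021 CPM in WT 92, against 152 to 267 CPM in the other striatal libraries at 4 weeks. The summed striatal markers of KO 51, 161 and 163 were 5511, 5074 and 7597 CPM, against 8040 to 15502 CPM in the other KO and WT libraries. Without these 4 libraries edgeR called 0 of the 10 genes, and Pde2a moved from -0.48 ± 0.18 (adjusted p = 0.154) to -0.08 (adjusted p = 0.859) and Pde10a from -0.43 to 0.20 (adjusted p = 0.718). The KO group of that fit, here and below, held only KO 12 and 932, whose summed striatal markers were 15502 and 10865 CPM. With so few KO libraries, a missing call there shows little. Per 1000 CPM of striatal markers, the 4-week KO libraries had 279 ± 17.3 CPM of Pde10a (262 to 301), the HET libraries 317 ± 14.3 (302 to 337) and the WT libraries 314 ± 18.3 (296 to 340, SD, n = 5 each). The KO libraries were below every HET library by that measure and overlapped the WT libraries. With the striatal marker level as a covariate, Pde10a at 4 weeks was at -0.13 ± 0.07 against WT (edgeR adjusted p = 0.339) and -0.15 ± 0.07 against HET (adjusted p = 0.212).

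**Figure D4:**
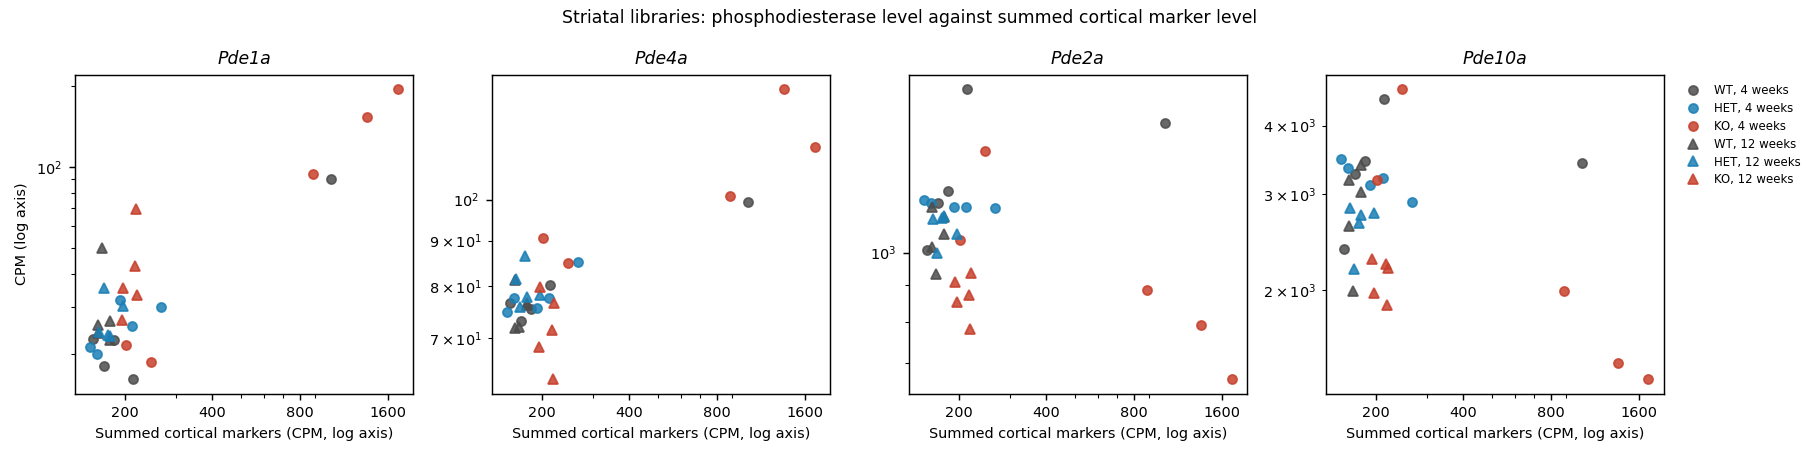
Levels of Pde1a, Pde4a, Pde2a and Pde10a against the summed level of 10 cortical and hippocampal excitatory neuron markers in the striatal libraries at 4 and 12 weeks, both in CPM on log axes, with 1 point per library, coloured by genotype and shaped by age. The 4 libraries at 4 weeks with marker sums of 888 to 1728 CPM, KO 51, 161 and 163 and WT 92, stand to the right of the rest, with Pde1a at 89.9 to 195 CPM.

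Pde4a at 4 weeks was at 84.9, 114, 101, 133 and 90.6 CPM in KO 12, 161, 163, 51 and 932, and at 73.1, 75.5, 76.6, 80.4 and 99.3 CPM in WT 142, 42, 913, 914 and 92. Of the KO libraries, 3 were above every WT library, and the difference was 0.37 ± 0.11 (SE, edgeR adjusted p = 0.0931). Against HET, Pde4a was called higher (0.43 ± 0.11, adjusted p = 0.0483), the only member of the 10 called in that comparison, where 3.88% of genes were called. Of the 5 KO libraries, 4 were above every HET library. Without the 4 libraries named above, with only KO 12 and 932 left in the KO group, Pde4a against WT was at 0.18 (adjusted p = 0.222), and 0 members were called against HET. Pde4a is highest in prefrontal cortex in WT mice. With the summed cortical markers as a covariate, Pde4a was at 0.13 ± 0.08 against HET (adjusted p = 0.608) and 0.15 ± 0.07 against WT (adjusted p = 0.360), and with the 9 markers other than Lamp5 at 0.25 ± 0.07 (adjusted p = 0.0551) and 0.23 ± 0.07 (adjusted p = 0.0664).

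The KO effect was also compared between regions and between ages. At 4 weeks the effect in striatum differed from the average effect over the remaining 5 regions for Pde1a (2.13 ± 0.54 on the log2 scale, edgeR adjusted p = 0.0113) and Pde4a (0.55 ± 0.13, adjusted p = 0.00700), 2 of 10 where 3.52% of genes were called. DESeq2 called the same 2. Neither passed without the 4 striatal libraries, where Pde1a was at 0.65 (adjusted p = 0.739) and Pde4a at 0.38 (adjusted p = 0.344). That fit held only KO 12 and 932 as striatal KO libraries. The average over the other regions included thalamus, where the Pde1a value moved with WT 913, 914 and 23, as given below. The comparison was not run without those thalamic libraries. At 12 weeks edgeR called 0 of the 10, where 3.11% of genes were called, with 4 at an unadjusted p under 0.05 and 0 called by DESeq2. Over all genes, 2273 of 17860 had an unadjusted edgeR p under 0.05. The difference for Pde10a was -0.41 ± 0.20 (adjusted p = 0.369) and that for Pde2a -0.11 ± 0.10 (adjusted p = 0.744), so the lower Pde2a was not shown to be limited to striatum.

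Between the ages, the KO effect differed for 0 of 60 member and region tests in edgeR, where 0% of genes were called, with 3 at an unadjusted p under 0.05 and 0 called by DESeq2. Over all genes, the number with an unadjusted edgeR p under 0.05 ran from 468 of 16358 in somatosensory cortex to 1261 of 16809 in substantia nigra. The smallest edgeR adjusted p of a member was 0.479, for Pde4a in striatum (-0.45 ± 0.13). Pde10a had a KO effect of -0.43 in striatum at both ages, with an SE of 0.28 at 4 weeks and 0.11 at 12 weeks. The 4-week value was 0.20 without KO 51, 161 and 163 and WT 92, where only KO 12 and 932 remained as KO libraries.

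**Figure D5:**
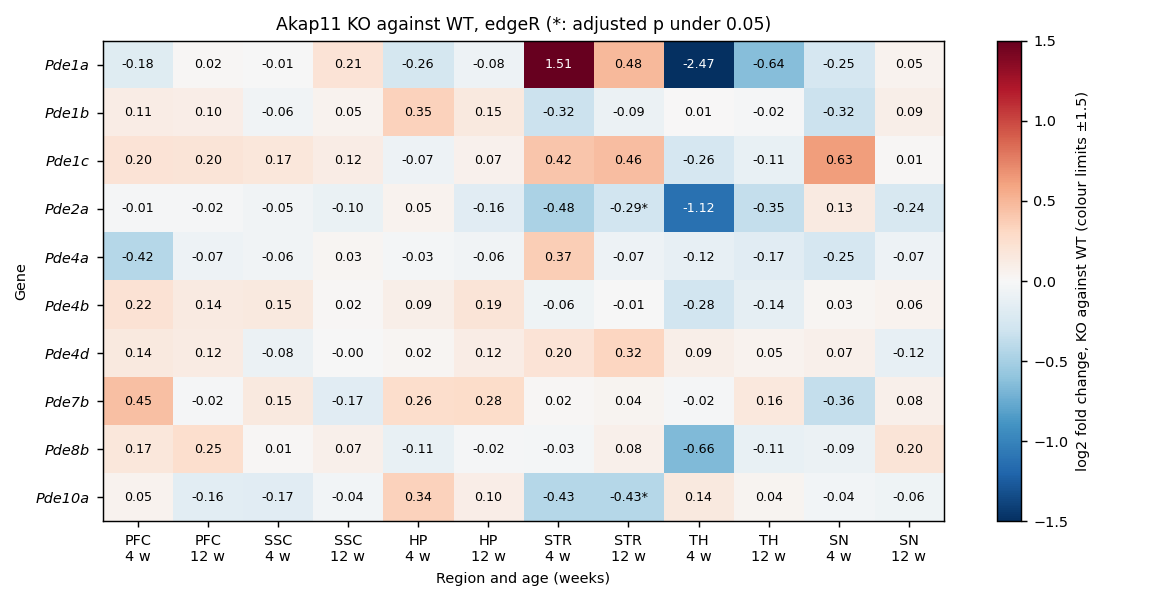
Log2 fold change of KO against WT as coloured cells, with 1 row per gene and 1 column per region and age, where red is higher in KO, blue is lower and the colours stop at 1.5 in size. Stars mark cells called by edgeR, which are Pde2a (-0.29) and Pde10a (-0.43) in striatum at 12 weeks, while the darkest cells, Pde1a in thalamus (-2.47) and striatum (1.51) at 4 weeks, are not called.

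Outside striatum edgeR called 0 of 100 KO and WT member tests at either age, where 0.00608% to 0.0564% of genes were called (0.0123% in prefrontal cortex at 12 weeks and 0.00609% in hippocampus at 4 weeks), with 16 at an unadjusted p under 0.05 and 0 called by DESeq2. Over all genes, the number with an unadjusted edgeR p under 0.05 ran from 479 of 16438 in hippocampus at 12 weeks to 2415 of 15970 in prefrontal cortex at 4 weeks. The smallest edgeR adjusted p of a member was 0.252, and 88 of the 100 fold changes were under 0.3 in size on the log2 scale. No member had KO and WT libraries without overlap in any region and age, 0 of 120. The share of all genes without overlap was 0.292% to 1.93% outside striatum, 3.58% in striatum at 4 weeks and 5.39% in striatum at 12 weeks.

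Pde2a had a lower KO than WT mean in several regions at 12 weeks without passing. In hippocampus KO libraries were at 368 to 408 CPM and WT libraries at 380 to 459 CPM (-0.16 ± 0.05, edgeR adjusted p = 0.998). In substantia nigra the KO values were 130, 134, 108, 109 and 112 CPM and the WT values 132, 138, 141, 129 and 155 CPM (-0.24 ± 0.09, adjusted p = 0.649). In thalamus the means were 23.0 and 29.3 CPM (-0.35 ± 0.14, adjusted p = 0.604). Outside striatum 5 differences were over 0.5 in size, and 4 of them were in thalamus. At 4 weeks Pde1a (-2.47 ± 0.87, edgeR adjusted p = 0.274), Pde2a (-1.12 ± 0.50, adjusted p = 0.338) and Pde8b (-0.66 ± 0.39, adjusted p = 0.448) were lower in the KO than in the WT mean there. Without thalamic WT 913, 914 and 23 these were 0.25 (adjusted p = 0.913), 0.21 (adjusted p = 0.693) and 0.24 (adjusted p = 0.763). At 12 weeks Pde1a in thalamus was at -0.64 ± 0.32 (adjusted p = 0.674). Pde1c in substantia nigra at 4 weeks was at 0.63 ± 0.25 (adjusted p = 0.643), and at 0.53 (adjusted p = 0.810) without WT 92.

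In HET mice edgeR called 0 of 120 member tests against WT over all regions and ages, with 17 at an unadjusted p under 0.05 and 0 called by DESeq2, and at most 0.00648% of genes were called in any region and age. Over all genes, the number with an unadjusted edgeR p under 0.05 ran from 263 of 15893 in somatosensory cortex at 12 weeks to 2551 of 15654 in thalamus at 4 weeks. The HET and KO comparisons share their WT libraries. In somatosensory cortex at 4 weeks, Pde10a was at 458 CPM in HET 93 and 230 CPM in HET 162 and at 55.2 to 102 CPM in the other 4 HET libraries. Their summed striatal markers were 1391 and 818 CPM, against 267 to 371 CPM in the other HET and WT libraries, and Pde1b was also highest in these, at 424 and 271 CPM. The HET and WT difference of Pde10a was 1.08 ± 0.46 (SE, edgeR adjusted p = 0.789) and -0.02 (adjusted p = 0.997) without them, a choice made after the data were seen.

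Other genes that make and read cyclic nucleotides were examined in KO striatum from lists of 11 other PDE genes, 16 adenylyl and guanylyl cyclase genes, 13 effector genes (PKA subunits and inhibitors, PKG and EPAC) and 6 genes of calmodulin and calmodulin-binding proteins. Of the 14 cyclase genes tested, Adcy1, a calmodulin-activated adenylyl cyclase, was called at both ages and no other was. At 4 weeks Adcy1 was at 576, 635, 527, 580 and 450.2 CPM in KO 12, 161, 163, 51 and 932, at 235 to 437 CPM in WT and at 263 to 352 CPM in HET libraries. The fold change was 0.80 ± 0.14 on the log2 scale (SE, edgeR adjusted p = 0.00541), and 0.82 (adjusted p = 0.0110) without KO 51, 161 and 163 and WT 92. At 12 weeks the KO libraries had 423, 386, 402, 376 and 379 CPM of Adcy1, and the WT libraries had 198 to 319 and the HET libraries 201 to 260 CPM (KO against WT 0.63 ± 0.10, adjusted p = 0.00164). KO libraries were above every WT and HET library at both ages. With the full cortical marker sum as a covariate the 12-week value of Adcy1 was 0.63 ± 0.20 (adjusted p = 0.114), and the other 18 alternatives kept the call.

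Of the 13 effector genes, Pkig, an inhibitor of PKA, was called lower at the younger age and none at the older. Pkig was at 45.6 to 49.1 CPM in KO and 49.2 to 68.8 CPM in WT libraries, which did not overlap (-0.29 ± 0.07, edgeR adjusted p = 0.0465). The call did not hold in 14 of 19 alternatives, and without KO 51, 161 and 163 and WT 92 the adjusted p of Pkig was 0.201. The other PDE genes gave 0 calls among the 8 tested at either age, and the calmodulin genes 0 of 6. The median log2 fold change at 12 weeks was 0.02 for the cyclase genes, -0.01 for the effector genes and -0.17 for the calmodulin genes, beside 0.01 over all genes tested.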

How the data were processed

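The authors deposited expected counts per gene, of which 77.9% of those above 0 held decimals. Salmon and mm10 are named in the submitters' processing notes, with no version or role. Strand use in counting is not stated in these sources, so reads of overlapping genes cannot be told apart. Groups came from the labels alone. Counts were rounded and fitted with edgeR 4.0.16 in R 4.3.3 (TMM, filterByExpr, estimateDisp, glmQLFit, glmQLFTest): the 3 genotypes together for each region and age, both ages together per region, WT libraries together per age, and all libraries per age for striatum against the other regions. The SE is the size of the log2 fold change over the square root of F. Benjamini-Hochberg adjustment ran over all genes of a comparison. Alternatives were RLE scaling, no filter, DESeq2 1.42.0, only the groups compared, a replicate block, marker covariates and leaving out libraries. For striatum against the other regions, limma 3.58.1 was also run with a block on genotype and replicate number together. The script was tested on simulated data. The named genes are the 10 members, the 3 genes most like each by Pearson correlation of log2(CPM + 1) over WT libraries among genes averaging at least 1, called genes of the pathway lists in KO striatum, and Akap11. The members and lists were chosen with earlier results of these data known. Protein sequences were not analysed here.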

Additional observations from a re-analysis of the deposited data

Results flagged for a closer look

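Each of the 10 genes was checked in each of the 36 groups for a library whose gap to the nearest other library was large for the range of its group (Dixon's test). Of 360 groups, 42 had such a library, 24 at 4 weeks and 18 at 12 weeks, where chance gives about 1 in 20. Several fall in the same library.

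In striatum at 4 weeks, WT 92 was highest for Pde1a (89.9 CPM) and Pde4a (99.3 CPM), WT 913 was highest for Pde1c (28.7 CPM), and HET 931 was lowest for Pde1b (2247 CPM) and highest for Pde4a (85.2 CPM). In striatum at 12 weeks, WT 3 was highest for Pde1a (49.7 CPM), KO 2 was highest for Pde1c (58.0 CPM), and HET 1 was lowest for Pde1b (2088 CPM) and Pde10a (2187 CPM).

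In substantia nigra at 4 weeks, WT 92 was highest for Pde1b (346 CPM) and lowest for Pde4d (3.80 CPM), which no other WT library approached. WT 42 was highest for Pde7b (74.2 CPM), as was KO 91 among the KO libraries (45.0 CPM), KO 163 was highest for Pde1a (38.7 CPM) and HET 93 for Pde1c (24.3 CPM). WT 42 and KO 91 had summed thalamic markers of 3451 and 2408 CPM, and Pde7b is higher in thalamus than in substantia nigra in WT mice. The part of thalamic tissue in these values was not tested.

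In thalamus at 4 weeks, WT 913 was highest for Pde2a (187 CPM) and lowest for Pde4d (51.3 CPM), WT 914 was highest for Pde1c (12.7 CPM) and HET 93 for Pde4a (124 CPM). At 12 weeks, WT 4 was highest for Pde2a (38.6 CPM) and Pde8b (16.7 CPM), HET 1 was highest for Pde2a (31.5 CPM) and KO 2 lowest for Pde4d (44.7 CPM).

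In somatosensory cortex at 12 weeks, KO 2 was highest for Pde2a (379 CPM) and Pde10a (145 CPM) and lowest for Pde8b (120.2 CPM), and KO 4 was highest for Pde1a (204 CPM) and Pde1b (170.0 CPM). HET 5 was highest for Pde1b (260 CPM), HET 2 was lowest for Pde8b (121 CPM) and WT 1 was lowest for Pde4d (51.6 CPM). At 4 weeks, KO 12 was highest for Pde4b (203 CPM) and Pde8b (195 CPM).

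In prefrontal cortex at 4 weeks, WT 914 was highest for Pde2a (835 CPM) and Pde4d (84.4 CPM), KO 161 was lowest for Pde2a (588 CPM) and KO 932 highest for Pde10a (95.7 CPM). At 12 weeks KO 2 was lowest for Pde4b (98.3 CPM). In hippocampus at 4 weeks, HET 162 was highest for Pde1b (181 CPM), HET 941 highest for Pde2a (475 CPM) and KO 161 lowest for Pde4a (93.5 CPM), and at 12 weeks WT 5 was highest for Pde1a (211 CPM).

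Between regions, the KO effect at 4 weeks differed in striatum from the mean of the other 5 regions for Pde1a, by 2.13 on the log2 scale, and for Pde4a, by 0.55. Neither passed without striatal KO 51, 161 and 163 and WT 92. For Pde1a that mean included the thalamic value, which moved with thalamic WT 913, 914 and 23.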

How the results depend on the processing

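Of 6910 single gene and setting values, 6814 kept their side of the threshold, 489 of them with the other sign but not called in either fit, and 63 lost the call and 31 gained it. In 2, a value called in 1 of the 2 fits changed sign, namely Pde1a (0.29) and Pde8b (0.51) in thalamus between the ages without WT 913, 914 and 23. The cause of each change below was not tested. With only WT libraries in the fit, the number of the 10 genes called between the ages was 1 in hippocampus (3 in the full fit), 3 in prefrontal cortex (1), 0 in substantia nigra (2) and 1 in thalamus (2). In substantia nigra it was 1 with no low-count filter and 1 without WT 42 and 92.

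For KO against WT in striatum at 12 weeks, where 2 were called, the number was 1 with only the 2 genotypes and 0 with the cortical marker covariate. Against HET at 12 weeks (1), it was 2 with only the 2 genotypes, 0 with the cortical marker covariate, and 2 with the covariate without Lamp5 or with the striatal marker covariate. For KO against WT at 4 weeks (0), it was 1 in DESeq2 and 1 with a covariate for the 16 libraries that hold few whole numbers. Against HET at 4 weeks (1), it was 2 in DESeq2 and 0 with no low-count filter, with only the 2 genotypes, with each marker covariate, and without KO 51, 161 and 163 and WT 92. Without those 4 libraries the striatum differed from the other regions at 4 weeks for 0 genes (2).

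Leaving out each library in turn gave, between the ages, 3 to 4 calls in hippocampus, 2 to 4 in somatosensory cortex (2 without 4-week WT 142 or 914 or 12-week WT 1), 0 to 2 in striatum (2 without 4-week WT 913, 1 without 12-week WT 4), 0 to 3 in substantia nigra (0 without 4-week WT 42 or 12-week WT 2, 3 or 5) and 1 to 3 in thalamus (1 without 4-week WT 913). In striatum it gave 1 to 2 for KO against WT at 12 weeks, 0 to 2 at 4 weeks (2 without KO 12 or WT 92, 1 without WT 913), and 0 to 2 against HET at 4 weeks (2 without KO 12 or 932, 0 without any of the others). For striatum against the other regions it gave 0 to 2 at 4 weeks (0 without KO 51, 1 without KO 161 or WT 914) and 0 to 1 at 12 weeks (1 without KO 4 or WT 3). The WT region pairs gave 95 to 109 at 4 weeks and 120 to 127 at 12 weeks. All of these counts are from edgeR. KO against WT outside striatum, HET against WT and the change of the KO effect with age stayed at 0 in each setting run.

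Replicate numbers recur in the labels, but samples with equal numbers did not all deviate together. In striatum at 12 weeks 8 of 15 such pairs had a correlation over 0.1, against 19 of 60 pairs with different numbers, and in hippocampus and thalamus 12 of 15 did, against 11 and 13 of 60. Among WT regions the numbers were 49 of 75 against 43 of 300 at 12 weeks, and 31 of 76 against 83 of 377 at 4 weeks, so equal numbers went with shared deviation more often than different ones. With the number as a replicate block, Pde2a in KO striatum at 12 weeks was at -0.28 (edgeR adjusted p = 0.0135) and Pde10a at -0.42, with an adjusted p just below 0.05, and no count of the 10 genes moved by more than 1.5 times. Over all genes, KO against HET at 12 weeks went from 749 to 1291 calls with the block. Over the other alternatives the calls in striatum ran from 199 (cortical marker covariate) to 1029 (DESeq2) around 691 for KO against WT and from 210 to 1164 against HET at 12 weeks. At 4 weeks they ran from 174 (only the 2 genotypes) to 970 around 516, and from 161 to 1339 around 599. At 20.8 M or more counts per library, depth bears most on Pde1a and Pde1c, in regions where they are under 10 CPM.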

Other observations

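Some of the 11 other catalytic PDE genes reached the levels of the lower members in single regions. These values are descriptions with no test, and these genes were picked after their values were seen. Pde8a, the close relative of Pde8b, was at 41.3 ± 1.69 CPM in substantia nigra and 36.4 ± 3.49 in thalamus at 12 weeks and at 5.12 ± 0.364 CPM in prefrontal cortex (SD, n = 5 each), whereas Pde8b was lowest in substantia nigra and thalamus. Pde7a was at 26.5 ± 1.66 CPM in prefrontal cortex at 12 weeks, where Pde7b was at 20.4 ± 2.47. The nigral and thalamic libraries of Pde8a did not overlap those of prefrontal cortex. Pde5a, which cleaves cGMP, had its highest mean in somatosensory cortex, at 22.5 CPM at 12 weeks, and its lowest in striatum, at 2.04 CPM. Pde3a had its highest mean in striatum, at 11.9 CPM. The rod and cone genes Pde6a, Pde6b and Pde6c had WT means under 0.5 CPM in every region and age, and at most 0.704 CPM in a single WT library.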
